A study of Mus musculus with 3 samples.

Results

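The genes described here build and move the motile cilium. They are all rows whose symbol starts with Cfap, Dnah, Dnaic, Dnaaf, Rsph, Ift or Drc followed by a digit, which gave 81 of the 22954 genes in the tables (32 Cfap, 16 Dnah, 15 Ift, 8 Rsph, 5 Dnaaf, 3 Drc and 2 Dnaic). The rule reads the symbol alone. They were followed in single cells from the lungs of 3 wild-type (WT) female C57BL6/J mice, 1 per group (CONV, CONV AsiDNA, FLASH), which were aged 8 to 9 weeks at irradiation and were sampled 5 months after 13 Gy to both sides of the thorax. By the methods of the paper, CONV was given at 0.4 Gy/s and FLASH at above 100 Gy/s. Its supplement lists a lower rate for CONV. It also lists a range of given doses that differs between CONV and FLASH, so 13 Gy is the nominal dose. The CONV AsiDNA mouse had received AsiDNA, a short DNA decoy that mimics a double-strand break, by intraperitoneal injection in daily doses of 100 mg/kg over the 2 preceding days and of 200 mg/kg on the day of conventional irradiation. All 3 mice were thus irradiated, and the control libraries were not analysed here.

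A motile cilium is a thin projection around a ring of microtubule doublets with a central pair. Outer and inner dynein arms slide the doublets past each other, radial spokes and the nexin-dynein regulatory complex link and time the arms, proteins inside the doublets stabilise them, and intraflagellar transport (IFT) trains carry the parts to the tip. In the airways, multiciliated cells carry many such cilia and clear mucus, whereas most other cells can form at most a single immotile primary cilium, which also needs IFT but no dynein arms or spokes.

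The libraries were made with 10x Genomics 3′ chemistry, which reads 1 end of each transcript, so that levels need no division by gene length. The authors deposited, for each gene and cell, a natural log value, ln(1 + n) with n whole, and n is called the adjusted count here because the totals per cell had a narrow range. The tables hold 6372, 6983 and 6267 cells in CONV, CONV AsiDNA and FLASH, with 23908890, 26417388 and 23383510 adjusted counts in all and a median of 3450, 3678 and 3621 per cell. Between 9 and 17 cell barcodes were shared by each pair of libraries. Cells were assigned to 18 classes by 128 markers, none of which is among the 81 genes. A gated cell had at least 3 markers of its class above 0 and a larger share of them than of any other class. A level is the adjusted count per 1000000 adjusted counts of all genes in a class (adjusted CPM). With 1 mouse per condition there was no replicate and no test between conditions, and the 95% intervals are exact Clopper-Pearson intervals that cover only the sampling of cells.

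The ciliated gate took 301 of the CONV cells, which is 4.72% with a 95% interval of 4.22 to 5.27. It took 424 of the CONV AsiDNA cells (6.07%, 5.52 to 6.66) and 324 of the FLASH cells (5.17%, 4.63 to 5.75). All 12 of its markers were above 0 in each library. Foxj1, the master regulator of motile ciliogenesis and itself a gate marker, was above 0 in 96.3%, 98.6% and 90.4% of these cells and in 0.0485% of all other cells. Since these markers chose the cells, their levels are no separate check of the class. None of the 81 genes was used by the gate. Some markers, such as Foxj1 and the dynein light chain Dynlrb2, nevertheless act in cilia or their formation. The 81 genes are therefore not fully independent of the gate. A median of 52, 53 and 50 of the 81 genes was above 0 in a ciliated-gated cell, against 2 in AT2-gated cells, 1 in T-gated cells and 0 in neutrophil-gated cells in each library.

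FLASH differed in the makeup of its ciliated-gated cells. Under 9 of the 12 gate markers were above 0 in 49 FLASH cells, against 10 cells of CONV and 4 of CONV AsiDNA. Those 49 FLASH cells had a median of 1979 adjusted counts, 627 genes and 8 of the 81 genes, and a mitochondrial share of 0.549%. The 275 other FLASH cells had a median of 4498 adjusted counts and 52 of the 81 genes, and a mitochondrial share of 4.19%. With at least 9 markers that share was 2.89% in CONV and 2.22% in CONV AsiDNA. Club cell markers also differed. At least 3 of 7 were above 0 in 2, 31 and 29 ciliated-gated cells of CONV, CONV AsiDNA and FLASH. Scgb1a1, the main secretory product of club cells, took 4924, 41604 and 64792 adjusted CPM. It was above 0 in only 1.33%, 7.55% and 25.3% of the ciliated-gated cells. Of the club list 6, 5 and 6 markers were above 0 in these cells, with summed levels of 8879, 46753 and 70705, and Scgb3a1 was at 0 in all 3. AT2 markers summed to 1.47, 29.1 and 24.5 adjusted CPM. The part of these cells and markers in the values below was not tested beyond the values given with at least 9 gate markers and without cells holding 3 or more markers of another class.

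**Figure D1:**
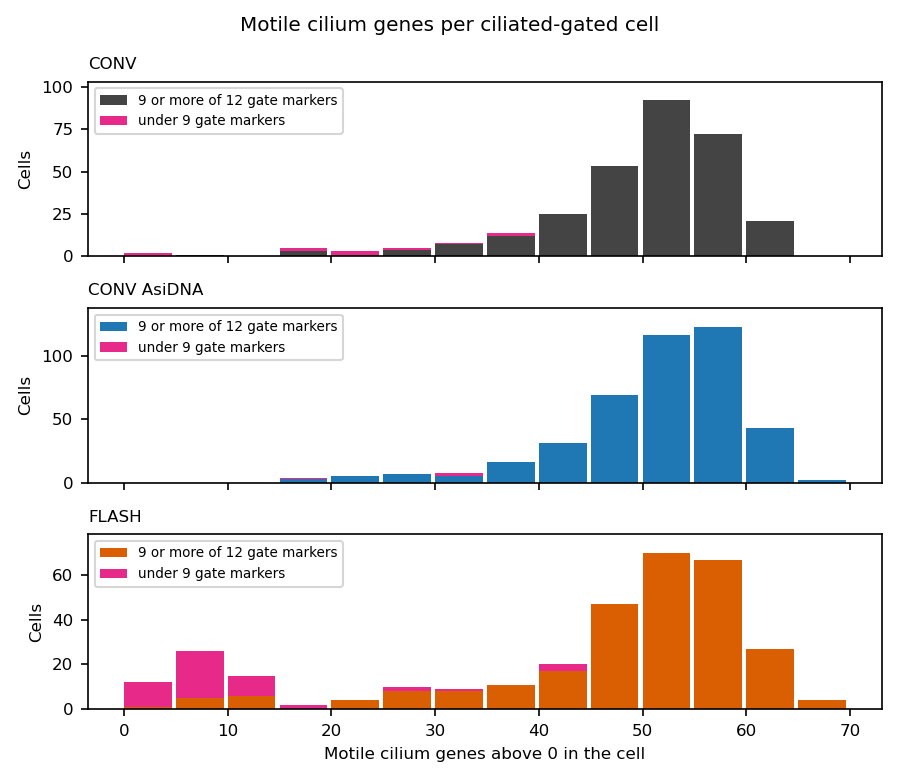
Number of the 81 motile cilium genes above 0 in each ciliated-gated cell (horizontal axis, in steps of 5 genes) against the number of cells (vertical axis), for each library, with cells under 9 of 12 gate markers stacked in pink. Most cells hold 40 or more genes in every library, and FLASH has a separate group under 15 genes that is mostly pink.

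Sequence upstream of the genes is shown first, because members that are switched on together in 1 cell type can be compared there. The X-box is the DNA element bound by RFX factors, which act on many cilium genes. Its core GTTGCC, read on either strand as GTTGCC or GGCAAC, was searched in windows from 250 bases before to 50 bases after RefSeq gene starts on GRCm38.p6. A window was given for 64 of the 81 genes (68 windows). The core lay in 26 of these windows (38.2%, 25 genes) and in 4111 of all 32851 windows (12.5%), and the GC content was 56.3% and 53.8%. Dnah7a, Dnah7b and Dnah7c, 3 near-identical copies, are among the genes with a match. The forkhead motif TGTTTAC, read on either strand as TGTTTAC or GTAAACA, lay in 3 of the 68 windows (4.41%) and in 3.65% of all windows. A match describes these letters only and is not a binding site. The windows below are the 4 with a core whose genes had the highest levels in ciliated-gated cells and were called 8-fold higher there (below). Added to them is that of Ift20, the gene most widely above 0 outside ciliated cells, which holds no core. Ift20 was picked and does not stand for the genes not called. The core lay in 5 of 17 windows of genes not called (29.4%) and in 21 of 51 of called genes (41.2%). Cfap20, shown with a core, was also above 0 in other classes (below). Capitals mark the core on either strand.

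Cfap298 (chr16:90934800-90935099, minus strand): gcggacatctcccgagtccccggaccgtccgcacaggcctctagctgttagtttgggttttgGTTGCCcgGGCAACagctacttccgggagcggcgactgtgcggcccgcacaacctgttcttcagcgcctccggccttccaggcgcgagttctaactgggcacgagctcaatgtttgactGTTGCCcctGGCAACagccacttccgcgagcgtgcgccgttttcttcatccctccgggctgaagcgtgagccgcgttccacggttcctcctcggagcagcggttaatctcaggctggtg
Cfap44 (chr16:44394549-44394848, plus strand): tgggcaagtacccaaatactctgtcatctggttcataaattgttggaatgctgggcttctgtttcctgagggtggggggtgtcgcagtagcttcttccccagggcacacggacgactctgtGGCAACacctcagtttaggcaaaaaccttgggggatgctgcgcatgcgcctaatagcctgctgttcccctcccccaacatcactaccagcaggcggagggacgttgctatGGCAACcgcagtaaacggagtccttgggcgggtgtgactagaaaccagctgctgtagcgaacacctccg
Cfap20 (chr8:95434820-95435119, minus strand): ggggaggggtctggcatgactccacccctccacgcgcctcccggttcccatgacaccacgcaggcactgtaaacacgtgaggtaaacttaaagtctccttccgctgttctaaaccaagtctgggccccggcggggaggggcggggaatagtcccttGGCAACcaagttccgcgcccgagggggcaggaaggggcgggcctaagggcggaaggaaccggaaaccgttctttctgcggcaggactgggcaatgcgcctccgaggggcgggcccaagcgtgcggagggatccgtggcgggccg
Ift88 (chr14:57423821-57424120, plus strand): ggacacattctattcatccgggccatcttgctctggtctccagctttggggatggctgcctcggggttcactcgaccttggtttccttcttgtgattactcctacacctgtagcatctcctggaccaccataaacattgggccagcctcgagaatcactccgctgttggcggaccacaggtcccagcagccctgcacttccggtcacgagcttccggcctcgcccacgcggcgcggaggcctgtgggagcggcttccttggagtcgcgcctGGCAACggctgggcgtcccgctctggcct
Ift20 (chr11:78536111-78536410, plus strand): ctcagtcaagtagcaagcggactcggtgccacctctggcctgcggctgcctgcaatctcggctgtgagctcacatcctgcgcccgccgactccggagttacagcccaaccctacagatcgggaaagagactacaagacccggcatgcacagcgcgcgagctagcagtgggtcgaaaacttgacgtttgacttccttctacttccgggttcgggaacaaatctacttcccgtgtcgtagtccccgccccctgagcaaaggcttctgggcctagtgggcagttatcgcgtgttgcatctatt

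Cfap298, an assembly factor for dynein arms, holds 4 cores, which form 2 inverted pairs that begin at positions -188 and -69, counted from the gene start as 0. An inverted pair, GTTGCC followed after 0 to 3 bases by GGCAAC, was found in 53 of all windows (0.161%) and in no window of the other 63 genes. Of the 12 genes with the highest levels in ciliated-gated cells, 9 had a window and only Cfap298 and Cfap44 held a core in it. Cfap44, which tethers an inner arm, has 2 cores, and Cfap20 and Ift88 have 1 each.

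The 81 genes were concentrated in ciliated-gated cells in all 3 libraries. These cells held 85.7%, 88.9% and 85.2% of all adjusted counts of the 81 genes in CONV, CONV AsiDNA and FLASH, at a summed level of 25616, 26280 and 24591 adjusted CPM. In the other epithelial gates the sum was 607, 562 and 508 in AT1-gated cells, 510, 486 and 466 in AT2-gated cells and 172, 142 and 379 in club-gated cells. A single club-gated cell of FLASH held 40 of the 81 genes, against at most 8 and 12 in a club-gated cell of CONV and CONV AsiDNA. In neutrophil-gated cells the sum was 55.8, 53.1 and 18.4. The level in ciliated-gated cells was at least 8-fold that in the other cells in every library (log2 ratio of adjusted CPM plus 10 of at least 3) for 59 of the 81 genes, while 3.36% of all 17723 genes with at least 20 adjusted counts were called by that rule. In single libraries 62, 60 and 61 of the 81 genes passed, beside 4.01%, 3.8% and 3.63% of all genes. Of the 81, 79 reached that minimum. The median log2 ratio over those 79 genes was 4.22, 4.6 and 4.36, against -0.03, -0.05 and -0.07 over all genes tested, and since the minimum is reached more easily by a gene that is high somewhere, these medians describe the 79 genes and not all 81. Just inside the threshold was Dnah2, with a lowest log2 ratio of 3.14, and just outside was Ift122 with 2.997. Of the 22 genes not called, 16 had a level under 70 adjusted CPM in a ciliated-gated library, which is too low to be called with the constant of 10 even if the other cells are at 0. The other 6 were Ift20, Ift52, Ift80, Ift122, Dnaaf2 and Dnaaf5.

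**Figure D2:**
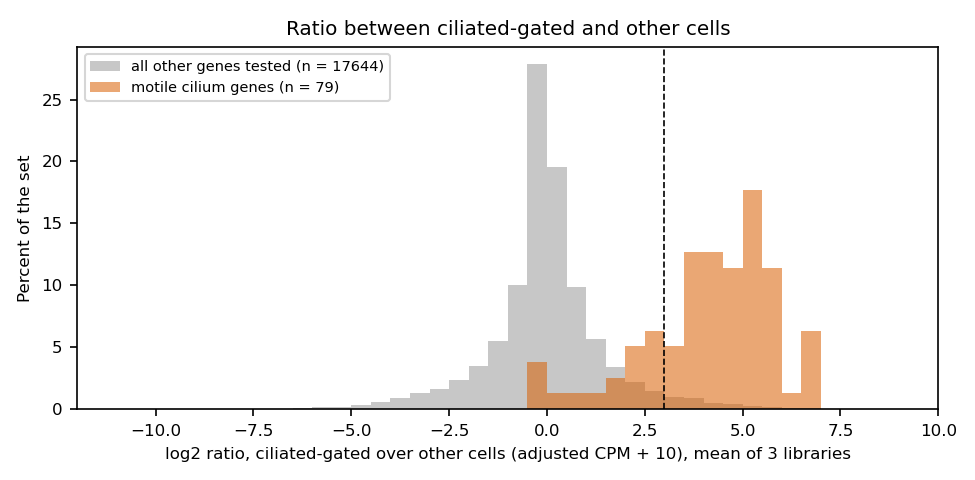
Log2 ratio of the level in ciliated-gated cells over that in all other cells (mean of the 3 libraries, adjusted CPM plus 10) for 79 motile cilium genes and for the other genes tested, each as percent of its set in steps of 0.5, with the dashed line at 3. The motile cilium genes sit mostly to the right of the line, with a small group near or below 0 that includes Dnah8, Dnah17 and Dnah2os.

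The heavy chains of the outer dynein arms, the motors that set beat frequency, split into airway and non-airway genes. Dnah5 (GRCm38 chr15:28203752-28472052) had 1042, 985 and 938 adjusted CPM in ciliated-gated cells of CONV, CONV AsiDNA and FLASH and 0.310, 0.0408 and 1.13 in the other cells. Dnah9 had 452, 431 and 413, and Dnah11 had 299, 265 and 257. The order Dnah5, Dnah9, Dnah11 was thus the same in each library, with the lowest value of each gene above the highest of the next. All 3 heavy chains were above 0 together in 70.8% (95% interval 65.3 to 75.8), 65.3% (60.6 to 69.9) and 54.3% (48.7 to 59.8) of ciliated-gated cells. None of the 3 was above 0 in 7, 4 and 39 cells. In contrast, Dnah17, a heavy chain known from sperm, was listed at 0 in every ciliated-gated cell, and Dnah8, another heavy chain known from sperm, was above 0 in 3.65%, 1.65% and 0% of them.

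Over the libraries together Dnah8 had its highest shares in T- and NK-gated cells. It was above 0 in 6.04%, 10.6% and 9.67% of T-gated cells (83, 103 and 114 cells), in 7.94%, 9.29% and 4.67% of NK-gated cells and in 3.2%, 4.63% and 5.18% of endothelial-gated cells. Over the 3 libraries together the share was 8.50% in T-gated, 7.36% in NK-gated, 4.42% in endothelial-gated and 4.27% in mast and basophil-gated cells (9 of 211), against 2.14% in B-gated, 1.72% in ciliated-gated and 0.546% in ILC2-gated cells, so that other lymphoid gates were not high. T-gated cells exceeded ciliated-gated cells in each of the 3 libraries. Their median depth was 3300, 3559 and 3504 adjusted counts against 4525, 4495 and 4472, and the part of depth in these shares was not tested. Dnah8 (chr17:30624354-30877365, plus strand) overlaps Glo1 and 3 further gene models in the GENCODE annotation, and where within it the counted reads lie was not analysed here.

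Dnaic1 and Dnaic2, the intermediate chains of the outer arm, were both called. Dnaic2 had 278, 263 and 238 adjusted CPM in ciliated-gated cells and Dnaic1 168, 213 and 220. Dnaic2 was thus the higher of the pair in each library.

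Among the 10 inner arm heavy chains, 9 were called and Dnah14 was not. Dnah6 (chr6:73017606-73221651) was the highest dynein of the whole set at 1075, 1231 and 1196 adjusted CPM, and was above 0 in 95.3%, 97.4% and 86.7% of ciliated-gated cells against 0.0165%, 0.0305% and 0.168% of the others. Dnah12 had 931, 768 and 814 and Dnah3 503, 417 and 465. The remaining called chains, Dnah10, Dnah7a, Dnah1, Dnah7b, Dnah7c and Dnah2, lay between 79.5 and 299. Dnah7a, Dnah7b and Dnah7c are near-identical copies, so how reads were split between them is uncertain. Dnah14 stayed between 3.12 and 5.87 adjusted CPM. Dnah2 (chr11:69420809-69549110) had 106, 85.3 and 79.5, and the antisense gene Dnah2os within it (chr11:69448548-69453676) was above 0 in 0%, 0.472% and 0% of ciliated-gated cells but in 7.73%, 7.71% and 8.70% of endothelial-gated cells. The other antisense gene, Ift88os, had 1 adjusted count in all 3 libraries. The strand setting of the counting was not given in the sources used here.

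Of the 5 genes that anchor or adjust the inner arms 4 were called. Cfap73, at 15.4, 15.6 and 14.9 adjusted CPM in ciliated-gated cells and 0, 0.0408 and 0 in the others, was also higher there but was under the limit of 70. Cfap44 had 607, 604 and 649 adjusted CPM, its partner Cfap43 had 525, 455 and 469, and Cfap100, which forms a complex with Cfap73, had 418, 398 and 412. The fifth gene of this role, Cfap57, was called at 175, 198 and 203.

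Radial spoke genes held the gene with the highest mean level over the libraries. Rsph1 (chr17:31255019-31277383), a spoke head protein, had 1082, 1324 and 1259 adjusted CPM and was above 0 in 95.7% (95% interval 92.7 to 97.7), 98.8% (97.3 to 99.6) and 87.3% (83.2 to 90.8) of ciliated-gated cells. Rsph9, also of the spoke head, had 740, 659 and 544, Rsph10b had 453, 459 and 415, and Rsph4a, a further spoke head protein, had 365, 434 and 418. These 4 genes were called. Rsph14 had 92.5, 97.3 and 65.4 and was short of the threshold in FLASH alone, with log2 ratios of 3.36, 3.42 and 2.88. The near-identical copies Rsph3a and Rsph3b stayed between 23.0 and 42.1. Rsph6a, a relative of Rsph4a known from sperm, was listed at 0 in all ciliated-gated cells and had 1 adjusted count in the whole data.

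All 3 genes of the nexin-dynein regulatory complex were called. Drc3 had 586, 540 and 459 adjusted CPM, Drc1, which anchors the complex, 357, 457 and 444, and Drc7 228, 238 and 230. Cfap206, at the base of a spoke, had 509, 522 and 510 and its neighbour Cfap61 had 146, 130 and 117, and both were called.

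Central apparatus genes were called in 6 of 7 cases. Cfap65 had 578, 614 and 536 adjusted CPM, Cfap54 594, 478 and 501 and Cfap69 381, 287 and 306. Cfap46, Cfap74 and Cfap47 followed between 104 and 245. Cfap221 had 50.6, 60.3 and 64.6 with at most 0.0454 in the other cells, and was not called because its level was under the limit of 70.

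Microtubule inner proteins, which line the inside of the doublets, were all called (7 of 7). Cfap126 (chr1:171113918-171126967) had 1179, 1092 and 984 adjusted CPM, Cfap53 had 992, 1012 and 871 and Cfap45 426, 554 and 521. Cfap126 was listed at 0 in all other cells of CONV AsiDNA and had 0.177 and 1.18 in those of CONV and FLASH. Cfap20 had 466, 478 and 400 in ciliated-gated cells but also 30.8, 27.6 and 20.0 in the other cells, the highest background of the genes that were called.

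Of the 7 factors that assemble dynein arms in the cytoplasm 4 were called, with Cfap298 far above the others. Cfap298 (chr16:90925809-90935114) had 672, 753 and 658 adjusted CPM and was above 0 in 92.0%, 96.9% and 83.3% of ciliated-gated cells. Dnaaf4, Dnaaf1 and Dnaaf3 were called at levels between 108 and 233. Dnaaf2 and Dnaaf5 were not called, with 7.76 to 9.85 and 1.18 to 3.14 adjusted CPM in the other cells and lowest log2 ratios of 2.17 and 2.85. Cfap300, at 41.8, 47.3 and 52.0, was under the limit of 70.

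Of the 14 IFT genes 9 were called. Ift43 of the retrograde IFT-A complex had 725, 899 and 772 adjusted CPM in ciliated-gated cells and was the only called member of 3, as Ift122 had 107, 102 and 116 and Ift140 84.4, 79.6 and 63.9. Of the 11 genes of the anterograde IFT-B complex 8 were called. Ift74 had 478, 547 and 520, Ift88 410, 434 and 428, and Ift81, which binds tubulin together with Ift74, 401, 388 and 392. Ift172 was highest in CONV (504, 358 and 328). Of the 9 genes given no role here 6 were called, among them Cfap36 at 371, 456 and 390 and Cfap299 at 354, 370 and 294. Cfap97, by contrast, had 45.5, 57.2 and 56.5 in ciliated-gated cells and 31.3, 31.1 and 34.9 in the others, with log2 ratios of 0.43, 0.71 and 0.57.

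**Figure D3:**
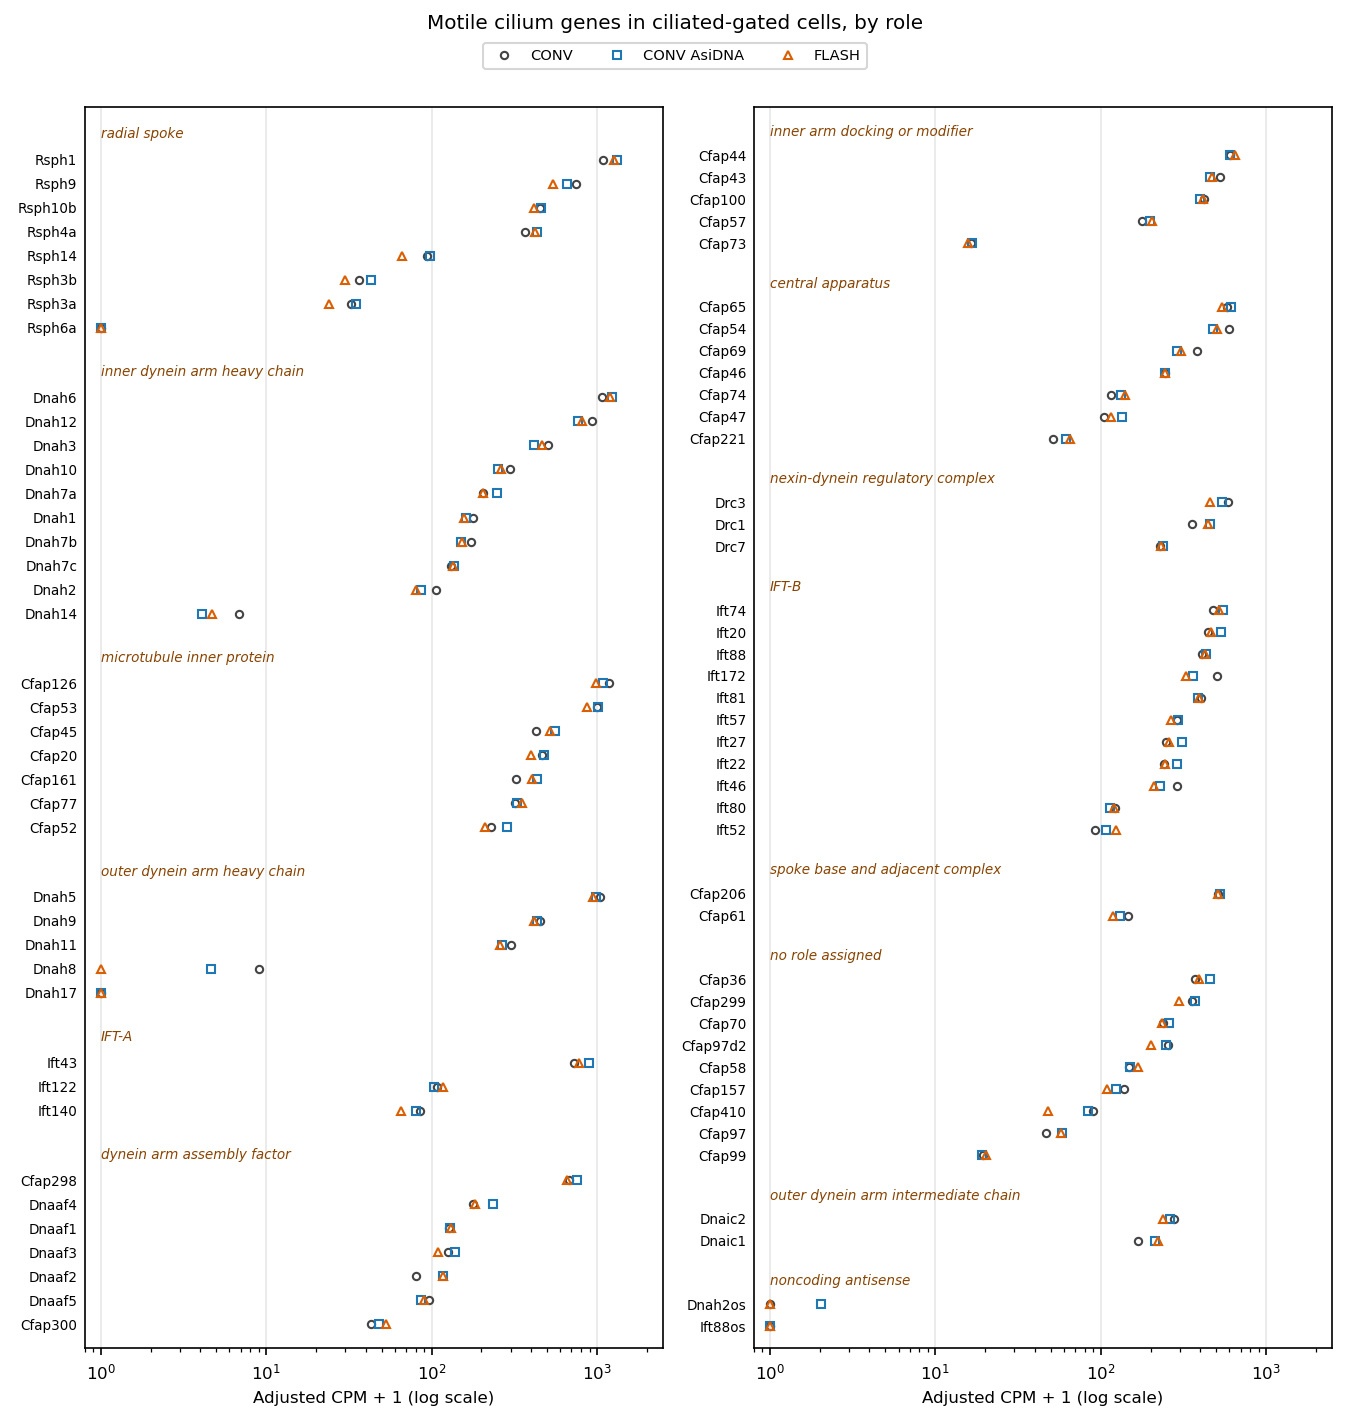
Level of each of the 81 genes in ciliated-gated cells (adjusted CPM plus 1, log axis), grouped by role, with 1 symbol for each library of 1 mouse. Rsph1, Dnah6 and Cfap126 sit at the right edge near 1000 or above, while Rsph6a, Dnah17 and Ift88os lie at 1, which stands for a value of 0.

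Outside ciliated-gated cells, 14 of the 81 genes were above 0 in at least 10% of the cells of another class in at least 2 libraries, while 60.8% of all 17723 genes tested passed that rule. Of these, 10 were IFT genes and the others were Cfap97, Cfap36, Cfap20 and Cfap298. The dynein chains, the spoke genes, the Drc genes and the central apparatus genes were not among them. By class, 8 of the 79 genes tested passed in mesothelial-gated cells, 7 in cells of the smooth muscle and pericyte gate and 6 in fibroblast-gated cells, while 32.6%, 28.2% and 30.1% of all genes tested passed in these classes, a larger share in each. Monocyte-, dendritic-, neutrophil- and interstitial macrophage-gated cells had none, where 24.6%, 20.1%, 12.2% and 24.8% of all genes passed. Classes differ in how many genes a cell shows (a median of 2019 in mesothelial-gated and 812.5 in neutrophil-gated cells), so the counts are no ranking of the classes.

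Ift20, an IFT-B protein that also resides at the Golgi apparatus, was the widest. It passed the 10% in 11 classes and was above 0 in 71.6% (95% interval 66.1 to 76.8), 75.8% (70.8 to 80.4) and 72.1% (67.4 to 76.6) of AT2-gated cells. These shares approach its 87.0%, 90.6% and 78.4% in ciliated-gated cells, but its level there was 228, 268 and 252 adjusted CPM against 443, 532 and 463. In neutrophil-gated cells Ift20 was above 0 in 1 of 266, 0 of 309 and 0 of 303 cells, at a median of 2782, 2907 and 2936 adjusted counts per cell against 4838, 4829 and 4797 in AT2-gated cells. In B-gated cells its share was 4.69%, 12% and 4.69%, so that CONV AsiDNA stood apart from the other mice.

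Ift43 was spread over mesenchymal classes, AT1-gated and endothelial-gated cells, with few AT2-gated cells. It was above 0 in 37.8%, 52.6% and 34.9% of smooth muscle and pericyte-gated cells, in 60%, 28.3% and 26.3% of mesothelial-gated cells (20, 46 and 38 cells) and in 24.7%, 18.0% and 23.2% of fibroblast-gated cells, against 4.84%, 0.612% and 2.34% of AT2-gated cells. In AT1-gated cells the Ift43 share was 22.1%, 32.8% and 13.8% and in endothelial-gated cells 15.2%, 13.7% and 11.8%. Ift43 was listed at 0 in every cell of the immune gates, among them 4067 B-gated, 3529 T-gated and 1729 alveolar macrophage-gated cells. The part of the unknown count adjustment in such zeros was not tested. Ift27 passed the rule in mesothelial-gated, fibroblast-gated and smooth muscle and pericyte-gated cells, with 22.2%, 24.6% and 20.9% in smooth muscle and pericyte-gated cells. Cfap20 was found in AT2-gated cells (31.1%, 33.0% and 23.2%) and Cfap298 in the same class at 14.9%, 8.87% and 13.0%.

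The IFT-B genes Ift80, Ift52, Ift74 and Ift22 passed the rule in 1 class each, as did Ift122 of IFT-A. Ift80 was above 0 in 8.95%, 14.2% and 12.7% of T-gated cells, although in CONV its share was 10.03% in AT2-gated cells (29 of 289) and 15% in mesothelial-gated cells (3 of 20), and in FLASH 15.4% in mast and basophil-gated cells (4 of 26). Ift52 was above 0 in 15%, 9.71% and 11.5% of alveolar macrophage-gated cells. Ift74 was above 0 in 17.8%, 11.7% and 3.31% of fibroblast-gated cells. In the few mesothelial-gated cells Ift22 was above 0 in 4 of 20, 4 of 46 and 5 of 38 and Ift122 in 1, 7 and 6. Ift81 passed in fibroblast-gated and in smooth muscle and pericyte-gated cells (28.9%, 14.0% and 11.6% of the latter), and Ift57 in mesothelial-gated and in smooth muscle and pericyte-gated cells (15.6%, 10.5% and 2.33% of the latter). Cfap36 passed in 6 classes, among them the smooth muscle and pericyte gate at 22.2%, 19.3% and 6.98%. Cfap97, which passed in 7 classes, was above 0 in 12.7%, 13.9% and 14.0% of T-gated cells, 13.4%, 11.2% and 13.8% of B-gated cells and 20.1%, 15% and 16.1% of AT2-gated cells, beside 19.9%, 23.6% and 21.3% of ciliated-gated cells.

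Dnah11 was above 0 in 32 of 587 alveolar macrophage-gated cells of CONV AsiDNA (5.45%, 95% interval 3.76 to 7.61) and in 0 of 681 and 0 of 461 in CONV and FLASH. Cdca7l, whose model overlaps Dnah11 (chr12:117877982-118199043), was above 0 in 4.99%, 5.62% and 6.51% of the alveolar macrophage-gated cells of CONV, CONV AsiDNA and FLASH, and 4 of the 32 cells held both. Dnah11 was also above 0 in 4%, 1.10% and 0.828% of endothelial-gated cells (15 of 375, 5 of 454 and 4 of 483), with CONV the highest there. Dnah11 in these classes, Cdca7l, Dnah8 and Dnah2os were chosen with their values already in view.

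**Figure D4:**
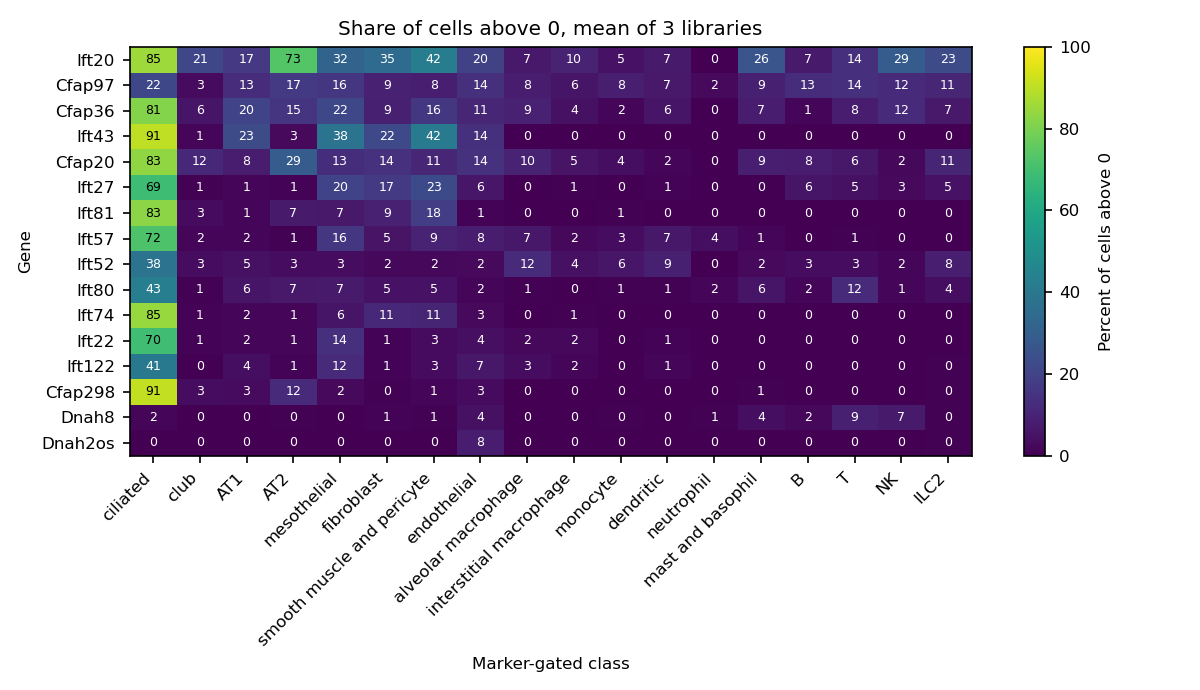
Percent of cells above 0 in each marker-gated class (mean of the 3 libraries, as colour and number) for the 14 genes found widely outside ciliated cells and for Dnah8 and Dnah2os. Ift20 is above 0 in 73% of AT2-gated cells, Ift43 reaches 42% in the smooth muscle and pericyte gate, and Dnah8 and Dnah2os have their highest shares in T-gated and endothelial-gated cells.

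Between the 3 mice, levels in ciliated-gated cells were compared for the 75 of the 81 genes that reached 20 adjusted counts there. Of these, 0 differed by over 2-fold in any pair of libraries. Over all 10569 genes tested, 1.51% were higher and 0.795% lower in CONV than in CONV AsiDNA, 2% and 1.08% in CONV than in FLASH, and 0.464% and 0.681% in CONV AsiDNA than in FLASH, so that few genes of any kind passed and a count of 0 in 75 is near this background. The median log2 ratio over the 75 genes was -0.04 for CONV over CONV AsiDNA (range -0.49 for Dnaaf2 to 0.48 for Ift172), 0.03 for CONV over FLASH (-0.50 for Dnaaf2 to 0.80 for Cfap410) and 0.07 for CONV AsiDNA over FLASH (-0.18 for Ift52 to 0.71 for Cfap410). All genes tested had medians of 0.05, 0.11 and 0.07, so the level of a typical gene was itself slightly shifted between the libraries. Scgb1a1 as given above took a different part of the total in each. The lowest log2 ratio of all genes for CONV AsiDNA over FLASH was -5.08, for mt-Co3. The 3 pairs share libraries and are not independent.

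**Figure D5:**
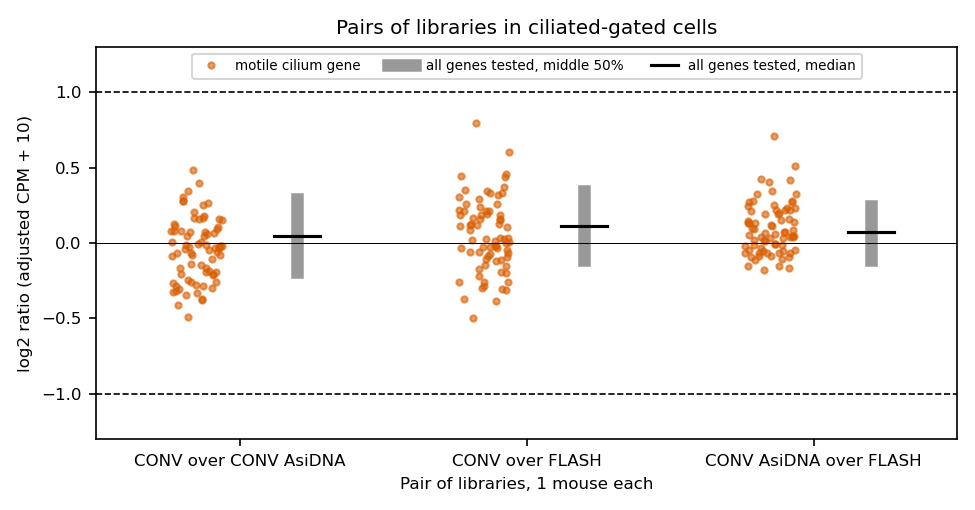
Log2 ratio of levels in ciliated-gated cells (adjusted CPM plus 10) for each pair of libraries, with 1 point for each of 75 motile cilium genes, a grey bar for the middle 50% of all genes tested and a black line for their median. All points lie between the dashed lines at 2-fold, and the highest is Cfap410 at 0.80 in CONV over FLASH.

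Cfap410, a gene of the ciliary base, was the farthest from equal. It had 88.8, 82.7 and 46.8 adjusted CPM and was above 0 in 36.5% (95% interval 31.1 to 42.3), 34.0% (29.5 to 38.7) and 19.1% (15 to 23.8) of ciliated-gated cells. FLASH was low and its interval did not overlap those of CONV and CONV AsiDNA. With at least 9 gate markers the shares were 37.8%, 34.3% and 22.5%. Ift172 was above 0 in 88.4% (84.2 to 91.8), 74.8% (70.3 to 78.8) and 68.2% (62.8 to 73.2), with CONV high and no overlap of its interval with the others, and with at least 9 gate markers in 90.4%, 75% and 78.5%. Dnaaf2 was lowest in CONV, at 79.3, 115 and 116 adjusted CPM.

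Shares of cells above 0 were lowest in FLASH for 68 of the 75 genes, and for 62.1% of all 10569 genes tested. The FLASH interval lay wholly below that of CONV for 37 of the 75 (15.6% of all genes) and below that of CONV AsiDNA for 48 (12.3% of all genes). The CONV interval lay below that of CONV AsiDNA for 10 of the 75 and above it for 2, a pair not counted over all genes. Since a share near 0 leaves little room for separate intervals, the FLASH counts were repeated over well-detected genes. These were the 1145 genes above 0 in at least 50% of all ciliated-gated cells, which include 52 of the 75. FLASH was lowest for 51 of these 52 beside 82.3% of the 1145, below CONV for 31 beside 38.2% and below CONV AsiDNA for 44 beside 55.2%. Low shares in FLASH were thus common among well-detected genes of any kind, and more frequent still among the 52. The source of that excess was not tested. Among cells with at least 9 gate markers FLASH was lowest for 43 of the 75, beside 44% of all genes. Its interval there lay below that of CONV for 6 of the 75 (Cfap69, Ift172, Cfap97d2, Cfap410, Dnah9 and Rsph9), beside 7.51% of all genes, and below that of CONV AsiDNA for 7, beside 2.83%. Of the 52 well-detected genes, FLASH was lowest in those cells for 33 beside 46.1% of the 1145, below CONV for 5 beside 8.82% and below CONV AsiDNA for 4 beside 6.72%. Among the 52 genes the counts of separate intervals were thus near the background in these cells, while the count lowest in FLASH stayed above it. The median share over the 75 genes was 72.4%, 74.5% and 61.1% in all ciliated-gated cells and 73.5%, 75% and 69.8% in those with at least 9 gate markers. By level, FLASH was lowest for 31 of the 75 genes, CONV for 30 and CONV AsiDNA for 14. Among cells with at least 9 gate markers, FLASH was lowest by level for 25, CONV for 34 and CONV AsiDNA for 16. The same count by level was not made over all genes. For the 12 genes with the highest levels (Rsph1, Dnah6, Cfap126, Dnah5, Cfap53, Dnah12, Ift43, Cfap298, Rsph9, Cfap44, Cfap65 and Drc3), FLASH had the lowest share for all 12 with all counts, for 11 among cells with at least 9 gate markers and for 9 after each cell was thinned to 1000 adjusted counts. After thinning FLASH was lowest for 48 of the 75 genes beside 45.9% of all genes, and for 34 of the 52 well-detected ones beside 54.7% of the 1145. Rsph9 was above 0 in 95.7%, 95% and 79.6% of ciliated-gated cells, and in 55.1%, 47.6% and 39.5% after thinning. The 3 of the 12 in which FLASH was not lowest after thinning were Dnah6 (58.5%, 67.9% and 65.7%), Ift43 (45.8%, 60.8% and 49.7%) and Dnah12 (50.5%, 47.9% and 48.1%).

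By role, the medians between libraries were small and moved with the scaling. All genes were themselves shifted, as 55.7% had a higher level in CONV than in CONV AsiDNA, 62.5% in CONV than in FLASH and 60.8% in CONV AsiDNA than in FLASH. The 7 spoke genes tested were all higher in CONV AsiDNA than in FLASH, with a median log2 ratio of 0.27 and a range of 0.05 to 0.51, but with scaling by the median gene 5 of the 7 were higher, with a median of 0.18. The 3 outer arm heavy chains were higher in CONV than in FLASH by 0.13 to 0.21, and with that scaling 1 of the 3 was, with a median of -0.0034. The 9 inner arm heavy chains had a median of 0.16 in CONV over FLASH and 0.18 in CONV over CONV AsiDNA, and of 0.01 and 0.12 with that scaling.

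Other cilium genes outside the naming rule were taken from a list of 59 symbols, of which 58 are in the tables. Of these 46 were called 8-fold higher in ciliated-gated cells in every library, beside the 3.36% of all genes. The axoneme list had 27 of 28, among them Hydin of the central pair (639, 596 and 695 adjusted CPM) and Ccdc39, the ruler of the axoneme repeat (728, 795 and 753), and only Efhc2 was not called. In the list of IFT and its motors 13 of 16 were called, led by Traf3ip1 at 864, 809 and 744. In the dynein assembly list 4 of the 6 genes with at least 20 adjusted counts were called. Among them were Lrrc6 at 269, 275 and 270 and Zmynd10 at 209, 270 and 234. The 7 symbols of this list in the tables include Dyx1c1, an older symbol of Dnaaf4, which was called under its present symbol (above). The Dyx1c1 row was listed at 0 in all ciliated-gated cells and says nothing about that gene. Of 7 genes that control the multiciliated fate only Myb (187, 190 and 192) and Trp73 (88.8, 94.7 and 85.4) were called. Rfx3, an RFX factor, had 196, 127 and 130 with log2 ratios of 3.47, 2.70 and 3.09, and Mcidas and Gmnc, which act early in the precursor, had at most 1.49 and 3.12. None of the 55 genes of this list with enough counts in ciliated-gated cells differed by over 2-fold in any pair of libraries, beside the background shares given above, and their median log2 ratios were -0.04, 0.02 and 0.10.

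Cells outside the ciliated gate seldom held many of the genes. Of 18573 such cells, 9 had at least 15 of the 81 genes above 0, of which FLASH held 6, CONV 2 and CONV AsiDNA 1. Of these, 5 had no class, 2 were club-gated, 1 was endothelial-gated and 1 was interstitial macrophage-gated.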

How the data were processed

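Single-cell RNA libraries of the lungs of 3 mice were used. The authors deposited natural log values of 1 plus a whole number for each gene and cell (whole within 1e-06 after conversion). The plan had allowed for raw counts, but the totals per cell were narrow, so no count model was used and a value of 0 is given as listed at 0. Cell Ranger 6.0.0 and mm10 are named in the submitters' processing notes, and the cell filter and the adjustment were not given in the sources used here. Left out were 4 tables whose gene identifiers are not those of the mouse tables. Of these, 1 holds 12 per-sample columns and 3 hold fold changes and p-values. Which samples and comparisons they describe was not established here.

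The 81 genes, the gate markers and the lists of other cilium genes were chosen with earlier results of these data known. The genes named were the 12 with the highest mean level in ciliated-gated cells, those above 0 in at least 10% of another class in at least 2 libraries, any past 2-fold against both other libraries (0 genes), and the members of each role by level. Cells with a tie between classes stayed without a class, and no doublet caller was run. A constant of 10 was added to each level before log2 ratios, so that changes of low genes are understated, for genes with at least 20 adjusted counts. Counts of shares over genes above 0 in at least 50% of ciliated-gated cells were added after seeing the data. The ratio and call steps were tested on simulated data. Positions are from the GENCODE annotation of GRCm38, which held 78 of the 81 symbols (not Dnaaf4, Cfap410 and Cfap47). Alternatives changed the gate minimum, the constant, the minimum count, the weight of cells, the scaling, the depth and the treatment of mixed cells. Python 3.11.15, numpy 2.4.6, scipy 1.17.1, pandas 2.3.3 and matplotlib 3.10.9 were used.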

Additional observations from a re-analysis of the deposited data

How the results depend on the processing

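No paired analysis was possible because each condition had 1 library of 1 mouse. The number of genes called in ciliated-gated cells was 59 under gates of at least 2 and at least 5 markers, under minimum counts of 50 and none and under median scaling, 60 with at least 9 markers, without mixed cells and with equal weight of cells, and 70 with a constant of 1. The number past 2-fold between libraries stayed at 0 under all 9 alternatives. Without mixed cells the share of ciliated-gated cells was 4.69%, 5.54% and 4.69% in CONV, CONV AsiDNA and FLASH. With at least 9 markers, an alternative chosen after seeing the data, it was 4.57%, 6.015% and 4.39%. FLASH was thus below CONV under that gate, but above it as reported (5.17% against 4.72%). The gate of at least 9 markers moved the shares of the 12 highest genes in FLASH out of their intervals (12 of 144 shares checked against the gates and mixed cells). Thinning to 1000 counts, which leaves fewer counts per cell by construction, lowered all 36. The median log2 ratio over the genes ranged from -0.11 to -0.02 for CONV over CONV AsiDNA, from -0.12 to 0.08 for CONV over FLASH and from -0.02 to 0.15 for CONV AsiDNA over FLASH, and the sign of the second turned with median scaling, with at least 9 markers and without mixed cells, that of the third with median scaling alone, while the first stayed below 0. The number of mice, and for genes under 70 adjusted CPM their low level, limits what can be called.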
